A study of Mus musculus with 1203 samples.

Results

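The wells described here hold single colon epithelial cells outside the tuft lineage, 50 from VillinCre;IPMKf/f mice and 21 from wt mice. They were taken from the 120 of 1203 wells whose cell type is labelled epithelial. A well was kept when at least 1000 genes stood above 0 TPM (the share of transcripts after division by length, on a total of 1000000 for each well) and when it did not reach both 50 TPM of Trpm5 and 100 TPM of Dclk1, the values that mark a tuft cell. Of the 120 wells, 30 fell below the gene minimum and 19 were left out as tuft cells, 1 of them from VillinCre;IPMKf/f and 18 from wt. The wells were thus chosen by measured Trpm5, Dclk1 and gene number, which are given as description only. Neither of these tuft genes was detected in 66 of the 71 wells. The members nearest the limits, both wt wells of plate set 6, had 33.8 TPM of Trpm5 with 1633 TPM of Dclk1, and 17.2 TPM with 94.5 TPM. The nearest wells left out had 88.2 TPM with 886 TPM in a wt well of plate set 6, and 91.3 TPM with 260.04 TPM in the VillinCre;IPMKf/f well of plate set 4.

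VillinCre;IPMKf/f mice carry floxed alleles of Ipmk and a Cre recombinase driven by the Villin promoter, which is active in intestinal epithelial cells and not in immune or stromal cells. In what follows their wells are called conditional knockout, after the label. The wt mice are labelled only as wild type, and the sources used here do not say whether they carry Cre or a floxed allele. Both genotypes were colon samples of female mice aged 11 weeks, stained for EPCAM and for SIGLEC-F, a tuft cell surface protein in this tissue, and sorted 1 cell to a well. Full-length cDNA was made by Smart-seq2, and wells were passed on by qPCR of GAPDH. The sources used here do not give the gate for the epithelial wells.

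Plate sets, the numbers after the letter p in the well titles, were used as the units of comparison. VillinCre;IPMKf/f wells came from plate sets 2, 4, 5 and 7 with 19, 8, 14 and 9 wells, and wt wells from plate sets 1, 3 and 6 with 5, 8 and 8 wells. Values per plate set are given below in that order. No plate set holds both genotypes, so genotype and plate set cannot be told apart. No animal is named, so each genotype is 1 sample and no p-value is given. The SD stated with a difference is the spread between plate sets of a genotype, which may be technical.

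The colonic surface is renewed from progenitors at the crypt base, which divide and give rise to absorptive colonocytes and to secretory cells such as goblet cells. Colonocytes take up salt, water and short-chain fatty acids, and goblet cells secrete the mucin Muc2 that forms the mucus layer. Ipmk encodes inositol polyphosphate multikinase, which adds phosphates to inositol trisphosphate and tetrakisphosphate on the route to the highly phosphorylated inositols, and it can also phosphorylate a membrane phosphoinositide.

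Both sides were epithelial by their markers. Epcam, the epithelial adhesion molecule used in the sort, was above 0 in 50 of 50 conditional knockout wells and 20 of 21 wt wells. Krt20, a keratin of differentiated colonocytes, was above 0 in 28 of 50 conditional knockout wells and 10 of 21 wt wells. Muc2 was above 0 in 11 of 50 conditional knockout wells, where it reached 13582 TPM, and in 4 of 21 wt wells, where it reached 31.8 TPM. Lymphocyte markers summed to between 0 and 34.4 TPM over the conditional knockout plate sets and between 0 and 2.58 TPM over the wt plate sets. Cd3e, Cd3g, Gzma, Gzmb and Cd79a were at 0 in every well. Tuft cell markers, in contrast, summed to between 24.8 and 49.4 TPM over the conditional knockout plate sets and between 137.2 and 370.7 TPM over the wt plate sets.

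A few wells carried genes of another cell type. A wt well of plate set 3, classed below as progenitor-like, had 707 TPM of the tuft gene Avil, 245.8 TPM of Sh2d6 and 161.5 TPM of Pou2f3, with no Trpm5. In plate set 6, the wt well at the edge of the tuft limits had 127.6 TPM of Sh2d6 and 20.7 TPM of Ptprc, the leukocyte surface phosphatase. A conditional knockout well of plate set 5 had 90.8 TPM of Ptprc, 255.99 TPM of Ccl5, 134.4 TPM of Nkg7 and 670 TPM of Tyrobp beside 146.6 TPM of Epcam. Results are given with these 3 wells, and also without them where they decide a call.

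Technical measures differed in part. The median number of genes per well was 3506, 3228.5, 3425.5 and 3782 in the conditional knockout plate sets, against 3553, 4137 and 1706.5 in the wt plate sets. The 18S ribosomal RNA entry Rn18s-rs5 took 61.8, 78.96, 74.4 and 80.1% of TPM in the conditional knockout plate sets, against 56.9, 63 and 62.5% in the wt plate sets. The mitochondrial share was 11.8, 1.63, 3.55 and 3.64% in the conditional knockout plate sets, against 7.78, 8.26 and 10.6% in the wt plate sets. Since TPM adds up to a fixed total, a larger 18S share lowers all other genes alike. Plate set 2 lay within the wt range of the 18S share.

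**Figure D1:**
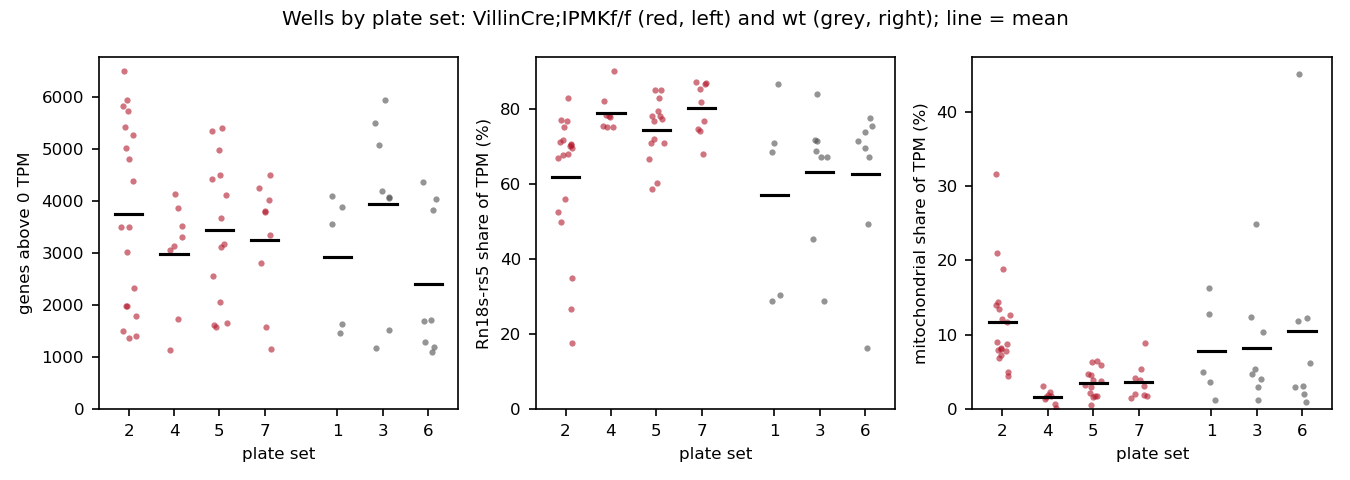
Genes above 0 TPM, the Rn18s-rs5 share of TPM and the mitochondrial share of TPM (both in percent) for each well by plate set, with VillinCre;IPMKf/f in red on the left and wt in grey on the right; lines are plate-set means. VillinCre;IPMKf/f plate sets 4, 5 and 7 lie at mean 18S shares of 74.4 to 80.1%, above the wt plate sets at 56.9 to 63%, and plate set 2 lies at 61.8%.

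Progenitor-like, colonocyte-like and goblet-like cells made up nearly all of the wells, and goblet-like wells were found on the conditional knockout side. The classes come from clusters of the 856 wells of both gates that passed the gene minimum, so the genes that define them are no result. Goblet-like wells numbered 7 of 50 in the conditional knockout (14.0%, exact binomial 95% interval 5.82 to 26.7%), with 1, 3, 3 and 0 in the plate sets, against 0 of 21 in wt, which allows a share of up to 14.3%. The 2 shares are thus not separable at this number of wells, since the share in the conditional knockout lies below the limit that 0 of 21 allows. Intervals and limits cover counting error only.

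Colonocyte-like wells numbered 27 of 50 in the conditional knockout (54%), with 12, 2, 6 and 7 in the plate sets, and 13 of 21 in wt (61.9%), with 3, 3 and 7. They fell into 3 clusters on both sides. A cluster led by Cyp2c55, a cytochrome P450 of the colon, Guca2a, the precursor of guanylin, and Car1 held 11 conditional knockout and 5 wt wells. Another, led by Prss30, Car4 and Muc3, held 12 conditional knockout and 6 wt wells with few genes, and the smallest held 4 conditional knockout and 2 wt wells. Progenitor-like wells numbered 15 of 50 in the conditional knockout (30%), with 6, 3, 4 and 2 in the plate sets, and 7 of 21 in wt (33.3%), with 2, 5 and 0. The make-up thus differed most between single plate sets: wt plate set 3 was mostly progenitor-like and wt plate set 6 had no such well. The progenitor-like name is weak. The cluster was led by Gpx2, Mgst1, Sult1a1, Stmn1 and Tyms and passed 8 progenitor markers, but also 7 colonocyte and 8 tuft markers. At a coarser clustering (resolution 0.5) its wells joined the colonocyte-like ones. A single well of each genotype fell in a tuft-like cluster.

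**Figure D2:**
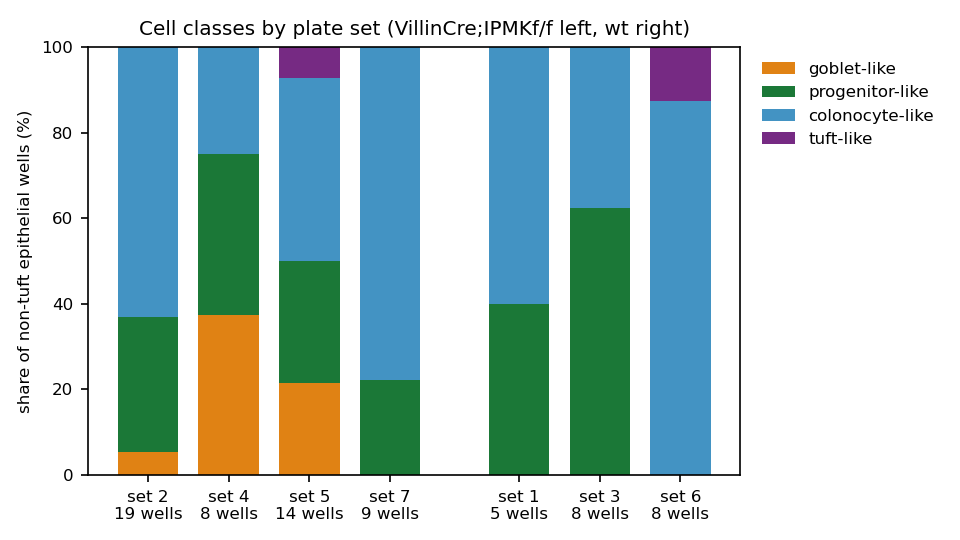
Share of non-tuft epithelial wells (percent) in each cell class for every plate set, VillinCre;IPMKf/f on the left and wt on the right, with the number of wells under each bar. Goblet-like wells appear in VillinCre;IPMKf/f plate sets 2, 4 and 5 and in none of the wt plate sets, and progenitor-like wells are lacking in wt plate set 6.

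Within the 7 goblet-like wells, Muc2 stood at 4906 TPM in the well of plate set 2, at 9976, 2877 and 13582 TPM in plate set 4 and at 6479, 8835 and 5164 TPM in plate set 5. Agr2, a disulfide isomerase needed for mucin folding, was above 0 in all 7 wells, between 619.55 and 7861 TPM. Klk1, a tissue kallikrein, was likewise present in all 7, between 371.7 and 2676 TPM. These wells differed among themselves in the other goblet products: Zg16, a lectin of the mucus layer, reached 101533 TPM in a well of plate set 5, and Spink4 spanned 0 to 10121 TPM. Car1, Car4 and Stmn1 were at 0 in all 7 wells, and Krt20 in 6 of 7.

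For the comparison of genotypes, TPM was averaged over the wells of a plate set, and log2(mean + 1) was averaged over plate sets with equal weight. A gene was called when 1 of the genotypes averaged 10 TPM or more, the difference was 1.5-fold or larger and the plate sets of the 2 genotypes were fully separate. Of 3485 genes at that level, 77 (2.21%) were called higher in the conditional knockout and 5.11% lower, and 7.46% had separate plate sets. Without the goblet-like wells these shares were 1.77% and 4.47%. The median log2 difference of these 3485 genes was -0.31, and that of 10454 genes at 1 TPM or more was -0.15. With the TPM rescaled without mitochondrial and the 20 most abundant genes, the median of genes at 1 TPM or more became 0.21 and the split turned to 3.65% higher and 2.12% lower of 9048 genes. Rescaled without Rn18s-rs5 alone, a choice made after seeing the data, it was 4.17% higher and 1.66% lower of 7048 genes. Without the 3 wells that carry genes of another cell type it was 3.12% higher and 3.21% lower. The excess of lower genes therefore depends on the scaling and on those wells. An average over wells does not by itself tell fewer cells of a type from less RNA per cell. Shares of wells and values within cell classes are therefore given below for part of the genes.

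Ipmk, the targeted gene (ENSMUSG00000060733, chr10:71347763-71433327, plus strand, GRCm38, protein-coding), was not lower in the wells labelled VillinCre;IPMKf/f. It averaged 34.2, 1.38, 9.41 and 5.85 TPM in the VillinCre;IPMKf/f plate sets, against 9.91, 2.09 and 7.28 TPM in the wt plate sets. The plate sets overlapped, with the highest and the lowest value both on the VillinCre;IPMKf/f side, and the log2 difference was 0.43 with an SD of 1.38. The sources used here do not say which exons are floxed, and a level summed over the gene cannot show the loss of an exon. The level therefore does not check the label, and the genotype names below stand for the labels.

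By well, Ipmk was above 0 in 25 of 50 conditional knockout wells and 9 of 21 wt wells, and reached 10 TPM in 15 and 2 of them. It lay mostly in colonocyte-like wells, where it was detected in 20 of 27 conditional knockout wells with a mean of 29.4 TPM and in 7 of 13 wt wells with a mean of 9.05 TPM. The 3 highest wells were all conditional knockout colonocyte-like wells of plate set 2, at 153.6, 134.7 and 132.4 TPM. Progenitor-like wells had it in 3 of 15 conditional knockout and 2 of 7 wt wells, and goblet-like wells in 1 of 7. Among wells of the tuft gate outside the tuft limits, with 14 to 41 wells in a conditional knockout plate set and at least 29 in a wt one, it averaged 11.9, 30.2, 19.6 and 11.6 TPM in the conditional knockout, against 5.13, 8.84 and 5.37 TPM in wt. There the plate sets did not overlap and Ipmk was called higher, with a log2 difference of 1.31 where 3.26% of 2328 genes were called higher.

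Among the other inositol phosphate kinases, Ppip5k1 rose and Ip6k1 and Itpkc fell. The list held 11 genes, of which 8 reached 1 TPM; 4 of these were above and 4 below 0, of the 5 at 10 TPM or more, 1 was called higher and 2 lower (2.21% and 5.11% of all genes); their median log2 difference was -0.10 against -0.15 for all genes. Ppip5k1 (chr2:121310561-121355396, minus strand) encodes a kinase that makes inositol pyrophosphates. It averaged 26.3, 19.8, 27.9 and 16.3 TPM in the conditional knockout, against 4.29, 1.8 and 9.49 TPM in wt. All conditional knockout plate sets lay above all wt plate sets, with a log2 difference of 2.10 and an SD of 0.66, and the gene was above 0 in 37 of 50 conditional knockout and 8 of 21 wt wells. It was also called higher in the tuft gate, at 13.9, 8.22, 8.98 and 14.4 TPM in the conditional knockout, against 6.34, 3.84 and 5.92 TPM in wt. In the epithelial gate Ppip5k1 was not called over wells with 2000 genes or more, at 1.74, or with the median over wells, at 1.97. A single well held 268.87 TPM in plate set 5, and another held 222.99 TPM in plate set 2.

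Ip6k1, which phosphorylates inositol hexakisphosphate to a pyrophosphate, averaged 5.08, 0, 8.99 and 0.199 TPM in the conditional knockout, against 12.6, 9.31 and 17.2 TPM in wt. The plate sets were close at their edges, 8.99 against 9.31 TPM, and the log2 difference was -2.23. It was -0.54 over wells with 2000 genes or more and -1.24 with logs averaged over wells, and was not called in either. Itpkc, which phosphorylates inositol trisphosphate, averaged 1.87, 0, 3.44 and 3.16 TPM in the conditional knockout, against 33.1, 3.79 and 11.7 TPM in wt, a log2 difference of -2.24. Both calls were lost without the 3 wells that carry genes of another cell type, at log2 differences of -1.97 for Ip6k1 and -2.22 for Itpkc. The call of Itpkc was also lost without wt plate set 1, at -1.53, and without the goblet-like wells, at -2.16. Of 9 measured inositol phosphate phosphatases and related genes only 2 reached 10 TPM, the level needed for a call, and neither was called. Itpk1 had 19.5, 3.30, 10.8 and 16.8 TPM in the conditional knockout, against 55.1, 6.82 and 11.9 TPM in wt.

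**Figure D3:**
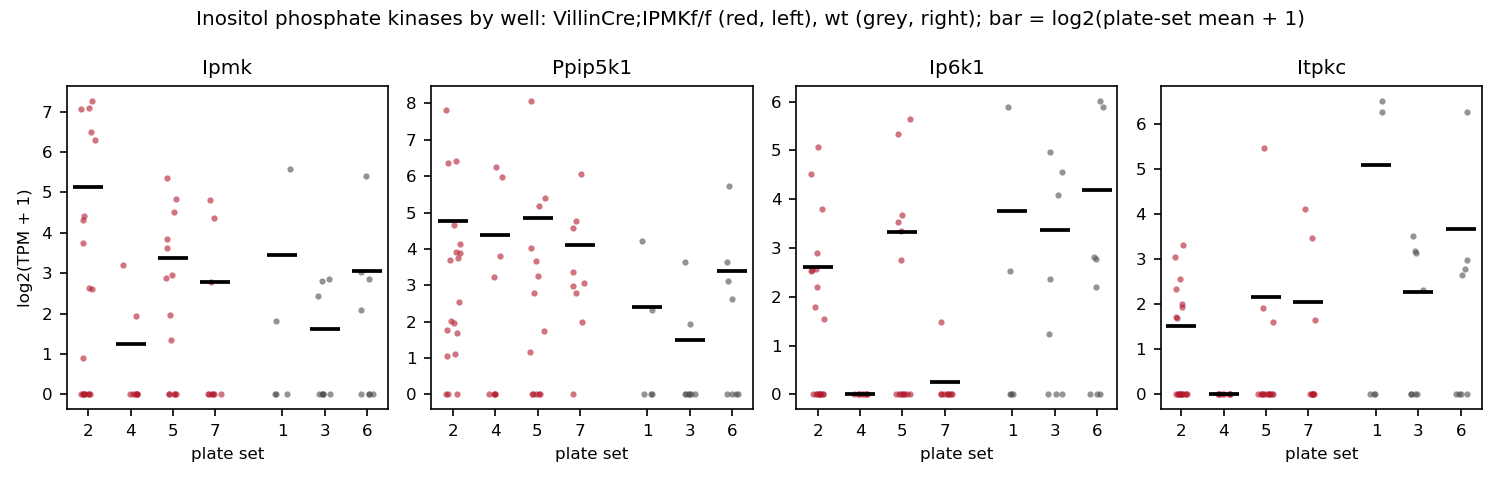
log2(TPM + 1) of Ipmk, Ppip5k1, Ip6k1 and Itpkc in each well by plate set, VillinCre;IPMKf/f in red on the left and wt in grey on the right; bars are log2 of the plate-set mean TPM + 1. Ipmk overlaps between the genotypes with a mean of 34.2 TPM in plate set 2, and Ppip5k1 lies at 16.3 to 27.9 TPM in VillinCre;IPMKf/f and 1.8 to 9.49 TPM in wt.

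Among the genes that rose, Eno3, Ano1 and Hoxb13 were also called higher within colonocyte-like wells and in the tuft gate. With the median over the epithelial wells of a plate set in place of the mean, none of them was called. Their log2 differences were then 0, 0.96 and 2.11. Ano1, a calcium-activated chloride channel, averaged 21.1, 15.3, 14.96 and 25.5 TPM in the conditional knockout, against 0, 1.49 and 1.84 TPM in wt. The log2 difference was 3.36 with an SD of 0.59, and the gene was above 0 in 18 of 50 conditional knockout and 2 of 21 wt wells. In colonocyte-like wells it stood at 32.9, 15.6, 25.2 and 30.1 TPM in the conditional knockout, against 0, 3.96 and 2.10 TPM in wt. In the tuft gate it stood at 11.5, 4.05, 11.1 and 41.8 TPM in the conditional knockout, against 1.42, 1.16 and 2.28 TPM in wt, so every conditional knockout plate set was above every wt plate set in all 3 groups of wells.

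Hoxb13, a transcription factor of the posterior Hox cluster that is expressed in the distal gut, averaged 8.35, 47.2, 30.2 and 35.6 TPM in the conditional knockout, against 2.86, 0 and 3.66 TPM in wt. Its log2 difference was 3.35 with an SD of 1.11, and 19 of 50 conditional knockout wells had it, against 2 of 21 wt wells. No colonocyte-like wt well had a value above 0, while the colonocyte-like conditional knockout wells averaged 9.31, 12.1, 65.7 and 32.97 TPM. In the tuft gate the plate sets came close, at 12.8, 10.8, 12.4 and 20.9 TPM in the conditional knockout, against 10.6, 4.62 and 4.75 TPM in wt.

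Eno3, the muscle-type enolase of glycolysis, averaged 19.6, 11.8, 32.6 and 38.9 TPM in the conditional knockout, against 4.98, 0 and 0.791 TPM in wt, a log2 difference of 3.47. In colonocyte-like wells it stood at 31.1, 4.26, 76.2 and 50.0 TPM in the conditional knockout, against 0, 0 and 0.904 TPM in wt. In the tuft gate it stood at 27.004, 11.4, 12.9 and 7.43 TPM in the conditional knockout, against 4.54, 4.41 and 3.29 TPM in wt. The difference was thus present in all of these groups and smaller in the tuft gate, at 1.49. Leaving out the goblet-like wells ended its call at a difference of 3.01.

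Ly6e, a surface protein of the Ly6 family anchored by glycosylphosphatidylinositol, rose with the most even separation among the 12 named higher genes after Ano1. It averaged 26.01, 68.2, 66.2 and 17.4 TPM in the conditional knockout, against 2.54, 1.78 and 1.19 TPM in wt, with a log2 difference of 3.81 and an SD of 0.77. It was above 0 in 29 of 50 conditional knockout wells, among them 6 of the 7 goblet-like ones, and in 3 of 21 wt wells. Progenitor-like wells carried much of it: 13 of 15 conditional knockout and 1 of 7 wt wells had it, with plate-set means of 44.9, 79.2, 124.7 and 7.37 TPM in the conditional knockout, against 0 and 2.84 TPM in wt plate sets 1 and 3. Colonocyte-like wells had it in 9 of 27 conditional knockout and 2 of 13 wt wells, where it was not called. In the tuft gate the log2 difference was 0.04. Of 14 measured genes on the list of Ly6 and epithelial stress genes, 9 were above 0. Of the 9 that reached 10 TPM Ly6e alone was called, beside 2.21% of all genes called higher.

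Wfdc2, Txndc5, B3gnt7 and Atp12a also rose. Wfdc2, a secreted protein with whey acidic domains, averaged 44.1, 77.95, 40.3 and 133.03 TPM in the conditional knockout, against 17.97, 0 and 23.9 TPM in wt, a log2 difference of 3.10. Txndc5, a disulfide isomerase of the endoplasmic reticulum, averaged 6.998, 30.9, 31.1 and 3.79 TPM in the conditional knockout, against 2.40, 1.23 and 0 TPM in wt, a log2 difference of 2.84 that became 1.62 and was no longer called without the goblet-like wells. B3gnt7, a glycosyltransferase, had 14.9, 43.1, 4.91 and 10.1 TPM in the conditional knockout and was listed at 0 in all wt plate sets. Atp12a, the colonic H+/K+ ATPase, had 14.8, 0.516, 26.8 and 5.69 TPM in the conditional knockout and was likewise listed at 0 in wt. Without the goblet-like wells B3gnt7 had 0.542, 12.1, 5.95 and 10.1 TPM in the conditional knockout, a mean under 10 TPM, and was not called. Atp12a then had 15.7, 0, 30.6 and 5.69 TPM and was not called because plate set 4 was at 0, as wt was. B3gnt7 was not called without plate set 4 either, nor Atp12a without plate set 5.

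The remaining named genes that rose were Trnau1ap, Dhx16, Mrps28 and Gtf2ird1. Trnau1ap, which assists selenocysteine insertion, averaged 16.8, 74.3, 12.7 and 109.7 TPM in the conditional knockout, against 0, 0 and 5.64 TPM in wt, a log2 difference of 4.33. Dhx16, a splicing helicase, had 12.8, 53.7, 8.68 and 3.12 TPM in the conditional knockout, against 0, 0 and 1.91 TPM in wt, a difference of 3.2 that became 2.52 and uncalled without plate set 4. Mrps28, of the mitochondrial ribosome, had 24.5, 28.8, 10.8 and 8.93 TPM in the conditional knockout, against 0, 8.53 and 0 TPM in wt, a difference of 3.03. Plate set 7 lay close to wt plate set 3 for Mrps28, and the call was lost without the 3 wells that carry genes of another cell type, at 2.99. Gtf2ird1, a transcription factor of the TFII-I family, had 5.58, 1839, 5.78 and 11.2 TPM in the conditional knockout, against 0, 4.34 and 1.014 TPM in wt. A single well of plate set 4 held 14609 TPM of it, and without that plate set the difference of 3.84 became 1.89 and was not called. It was not called without the goblet-like wells either, at 3.80, and after rescaling Trnau1ap and Gtf2ird1 had differences of 5.99 and 4.43 but were not called.

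Among the genes that fell, Smap1, Atp11a and Chn2 had the 3 largest differences. Smap1, a GTPase-activating protein for Arf6, averaged 1.76, 0, 1.08 and 3.38 TPM in the conditional knockout, against 124.6, 38.8 and 10.2 TPM in wt, a log2 difference of -4.09. Atp11a, a phospholipid flippase, averaged 4.52, 3.38, 0.686 and 0.41 TPM in the conditional knockout, against 10.1, 21.96 and 59.3 TPM in wt, a difference of -3.17. Chn2, which inactivates Rac, averaged 1.40, 2.04, 0 and 2.38 TPM in the conditional knockout, against 13.4, 32.1 and 11.5 TPM in wt, a difference of -3.03. The wt side varied more than the conditional knockout side in all of these, and in Smap1 the highest wt well reached 586.8 TPM.

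Lnx2, a ubiquitin ligase that binds Numb, had the most even separation of the 12 named lower genes. It averaged 0.863, 0.729, 0.736 and 0.323 TPM in the conditional knockout, against 19.6, 5.96 and 15.1 TPM in wt, with a log2 difference of -3.0 and an SD of 0.55. No conditional knockout well exceeded 5.90 TPM, and 11 of 50 had a value above 0, against 8 of 21 wt wells. The 3 highest wt wells, at 119.01, 90.2 and 24.31 TPM, had 1185, 1644 and 1530 genes. Over wells with 2000 genes or more, Lnx2 was not called, at -0.68, and neither were Hdac5, at -1.24, Mbd6, at -0.17, Fmo5, at -1.86, and Trim40, at -2.23. Hdac5, a class IIa histone deacetylase, averaged 5.90, 0.58, 1.301 and 2.39 TPM in the conditional knockout, against 46.2, 17.8 and 14.6 TPM in wt. Fmo5, a flavin monooxygenase, averaged 5.02, 0, 3.13 and 1.05 TPM in the conditional knockout, against 49.2, 6.87 and 19.7 TPM in wt. Hdac5 and Fmo5 differed by -2.98 and -2.92, and Atp11a, Chn2, Lnx2, Hdac5, Fmo5 and Mbd6 were called lower within colonocyte-like wells as well.

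The other named genes that fell were Mad2l1bp, which helps silence the spindle checkpoint, at a log2 difference of -2.89, Trim40 at -2.84, Alkbh6 at -2.80, the methyl-CpG-binding-domain protein gene Mbd6 at -2.77, the tubulin-folding cofactor gene Tbcb at -2.73 and the zinc finger gene Zfand5 at -2.59. Alkbh6 averaged 7.59, 0, 23.6 and 5.46 TPM in the conditional knockout, against 42.98, 42.1 and 38.6 TPM in wt. The wt means were alike, but the 3 highest wt wells lay in different plate sets and weighed heavily on them. Those of plate sets 3 and 6, at 281.47 and 211.03 TPM, are among the 3 wells that carry genes of another cell type. With the median over wells the difference of Alkbh6 was -0.05 and not called. Tbcb averaged 18.995, 2.99, 19.8 and 61.8 TPM in the conditional knockout, against 320.6, 73 and 70.7 TPM in wt, so that 1 wt plate set stood apart. Zfand5, at 7.82, 0, 1.55 and 1.58 TPM in the conditional knockout, against 28.97, 8.44 and 15.3 TPM in wt, was also called lower in the tuft gate, with a difference there of -1.89. Without wt plate set 1, Trim40 and Mbd6 were not called, at -2.58 and -1.93. Without the 3 wells that carry genes of another cell type, Smap1, Trim40, Alkbh6, Tbcb and Zfand5 were not called, at -2.36, -2.04, -1.56, -2.68 and -2.18. After rescaling, Atp11a, Alkbh6, Tbcb and Zfand5 kept differences of -3.39, -3.18, -2.44 and -2.17 but were not called.

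**Figure D4:**
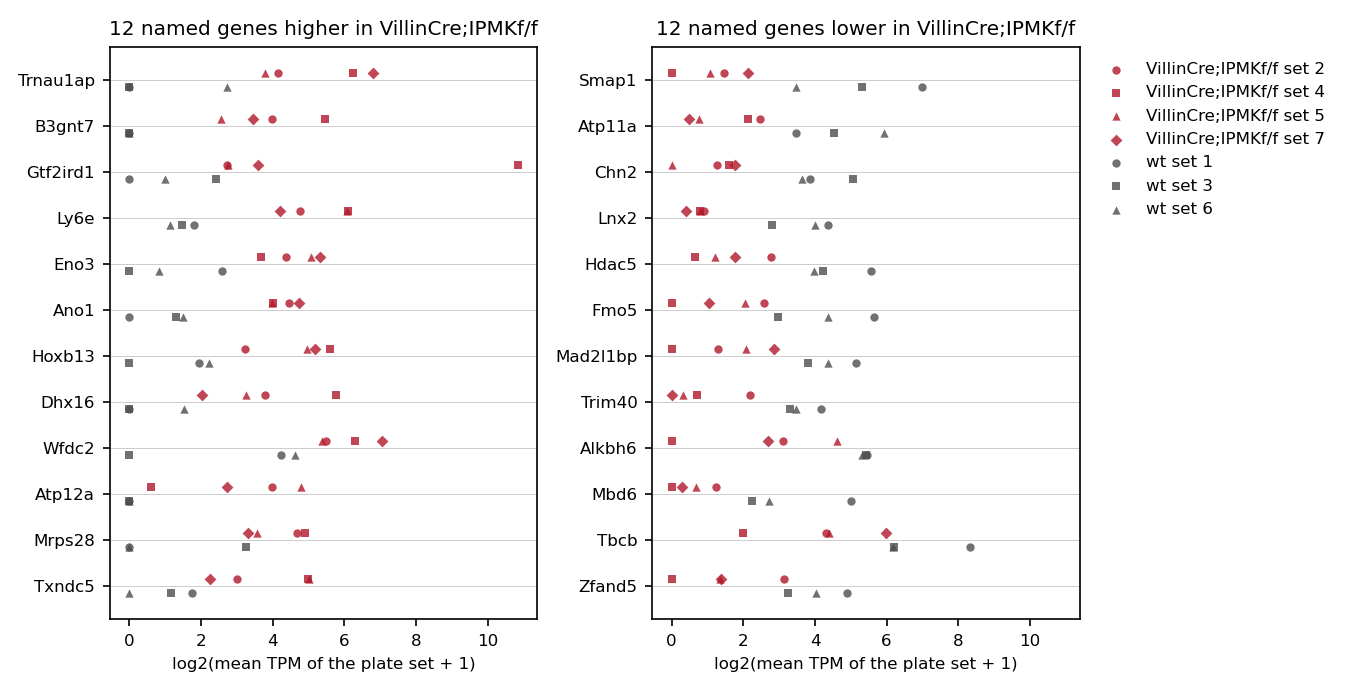
log2(mean TPM + 1) of each plate set for the 12 named genes higher (left panel) and the 12 named genes lower (right panel) in VillinCre;IPMKf/f, which is drawn in red above wt in grey for each gene. Plate sets do not overlap by the rule that chose the genes; the Gtf2ird1 point of plate set 4 at 1839 TPM stands apart, as do the wt plate set 1 points of Smap1 and Tbcb at 124.6 and 320.6 TPM.

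The calls were shared in part between cell groups. Of the 77 genes called higher, 22 were also called higher in colonocyte-like wells, which is 28.6% of the 77 and 20% of the 110 called there (3.74% of 2943 genes). Of the genes called lower, 39 were also called lower there, 21.9% of them and 38.2% of those called there (3.47%). These wells are part of the 71, so the overlap is no independent repeat. In progenitor-like wells, compared without wt plate set 6, 11 of the 77 were also called higher (14.3% of them and 18.97% of those called there) and 62 of the genes called lower were lower too (34.8% and 8.64%), beside 1.4% and 17.3% of 4145 genes. They include Ly6e, Trnau1ap and Dhx16 among the higher and Smap1, Alkbh6, Tbcb, Ceacam1, Psmb10 and Egr1 among the lower genes. The wt well of plate set 3 with the tuft gene Avil is 1 of these progenitor-like wells. It held 310.8 TPM of Smap1 and 281.5 TPM of Alkbh6, and calls within the class were not tested without it. In the tuft gate, whose wells are other cells of the same plate sets, 4 of the 77 were called higher, which is 5.19% of the 77 and 5.26% of the 76 called there (3.26% of 2328 genes): Eno3, Ano1, Hoxb13 and Ppip5k1. Of the genes called lower, 2 were called lower there, Zfand5 and U2af1, 1.12% of them and 4.65% of the 43 (1.85% of 2328 genes).

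Goblet genes stood higher in conditional knockout wells. The goblet-like class was named by these same markers, and its 7 wells are all conditional knockout. The values of these markers with and without those wells are therefore description only. Of 18 goblet markers 16 reached 1 TPM, 15 of them above 0, with a median log2 difference of 2.58 against -0.15 for all genes. Of the 9 that reached 10 TPM, 3 were called higher, beside 2.21% of all genes. In the tuft gate 4 of the 16 lay above 0, with a median of -0.52 against -0.10 for all genes. Within the epithelial gate, the median without the goblet-like wells was 0. Klk1 averaged 79.9, 761, 419.3 and 261.4 TPM in the conditional knockout, against 22.9, 68.97 and 64.7 TPM in wt, a log2 difference of 2.58 that became 1.66 and uncalled without them. Zg16, at 10.1, 114.3, 7252 and 97.8 TPM in the conditional knockout, and Clca1, a secreted protein of mucus, at 0.361, 2.94, 330.1 and 2.66 TPM, were listed at 0 in wt. Plate set 7, which had no goblet-like well, lay above every wt plate set for Klk1, Zg16 and Clca1. Without the goblet-like wells Zg16 had 10.6, 0, 0 and 97.8 TPM in the conditional knockout and was not called. Clca1 was not called without plate set 5.

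Muc2 itself averaged 259.4, 3304, 1464 and 0 TPM in the conditional knockout, against 0, 9.15 and 0 TPM in wt, and was not called because plate set 7 was at 0. The mucus secretion list, which shares genes with the goblet list, had 12 of 18 measured genes above 0 and a median of 0.58, or -0.15 without the goblet-like wells. Mptx1, a mucosal pentraxin of the antimicrobial list, had 8.37, 314.7, 114.2 and 8.49 TPM in the conditional knockout and was listed at 0 in wt; it too was not called without the goblet-like wells. That antimicrobial list had 7 of 10 measured genes above 0. Of the 7 that reached 10 TPM, Mptx1 alone was called higher, beside 2.21% of all genes. Saa1, an acute-phase protein, spread widely on the conditional knockout side, at 410.5, 0, 665 and 107.1 TPM, against 61.03, 15.5 and 111.5 TPM in wt. The highest value, 5121.16 TPM, was in the well of plate set 5 that carried Ptprc and Ccl5.

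Colonocyte markers were lower on balance in these wells and divided in direction. Of 19, 13 lay below 0 with a median of -0.80. All 19 reached 10 TPM, and 2 were called lower and 1 higher, beside 5.11% and 2.21% of all genes. After rescaling the median of the 17 markers kept was -0.43. In the tuft gate the direction was the opposite: 18 of the 19 lay above 0, with a median of 0.63 against -0.10 for all genes. Ceacam1, an apical adhesion molecule, averaged 180.4, 108.7, 116.7 and 143.4 TPM in the conditional knockout, against 226.9, 269.8 and 289.2 TPM in wt, a log2 difference of -0.95 with an SD of 0.28. It was above 0 in 49 of 50 conditional knockout and 20 of 21 wt wells. Within colonocyte-like wells Ceacam1 stood at 237.2, 306.7, 127.5 and 167.4 TPM in the conditional knockout, against 322.5, 499.6 and 330.5 TPM in wt, and was called lower there as well. It was not called after rescaling, at -0.64 or, without Rn18s-rs5 alone, -0.17, nor over all wells labelled epithelial, at -0.37.

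Ceacam20, of the same family, averaged 26.4, 0.866, 17.9 and 12.6 TPM in the conditional knockout, against 27.3, 36.03 and 31.6 TPM in wt, a log2 difference of -1.60 that was not called without the goblet-like wells, at -1.41. Car1, the cytosolic carbonic anhydrase of colonocytes, averaged 2791, 2445.5, 2368 and 3472 TPM in the conditional knockout, against 1209.6, 2088 and 2132 TPM in wt, a log2 difference of 0.64. Its call did not hold without wt plate set 1 (0.38), without plate set 7 (0.53) or without the 3 wells that carry genes of another cell type (0.54), and its median over wells had the opposite sign. Krt20 had 69.3, 83.3, 68.4 and 182.6 TPM in the conditional knockout, against 517.3, 68.95 and 237.7 TPM in wt, and Guca2a 1760.4, 1835, 522.9 and 3818 TPM, against 2759.6, 1028 and 4755 TPM; the plate sets overlapped for both. Of 17 measured progenitor markers, 12 were above 0 with a median of 0.43, while in the tuft gate 1 was above 0 with a median of -0.30. Within the epithelial gate 3 reached 10 TPM and none of these was called. Mki67, a proliferation gene, differed by 0.04.

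Of 20 ion and water transport genes 19 were measured, 13 above 0 with a median of 0.56. Of the 14 that reached 10 TPM, 2 were called higher, Car1 and Atp12a, beside 2.21% of all genes. Both calls were lost under settings given above. In colonocyte-like wells the median of this list was 1.15, where that of all genes was 0. Lipid and ketone metabolism genes had 13 of 16 below 0 with a median of -0.21, against -0.15 for all genes. After rescaling 6 of the 16 were above 0 with a median of -0.02, against 0.21 for all genes. Acadm, the medium-chain acyl-CoA dehydrogenase of fatty acid oxidation, fell to 29.7, 21.7, 35.1 and 26.3 TPM in the conditional knockout, against 73.98, 45.3 and 74.5 TPM in wt, a log2 difference of -1.15 with an SD of 0.34. It was above 0 in 35 of 50 conditional knockout and 20 of 21 wt wells, and remained called after rescaling, at -1.38. It was not called over wells with 2000 genes or more, at -0.40, or over all wells labelled epithelial, at -0.77. Pparg, a nuclear receptor that responds to fatty acids, fell to 4.98, 6.27, 8.09 and 8.65 TPM in the conditional knockout, against 12.04, 11.8 and 11.1 TPM in wt; its difference of -0.69 became -0.56 and uncalled without plate set 2.

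Genes of the unfolded protein response were split, 9 above and 10 below 0 with a median of -0.07. Pdia6, a disulfide isomerase, rose to 13.5, 20.6, 30.9 and 11.6 TPM in the conditional knockout, against 6.01, 11.2 and 2.27 TPM in wt, a log2 difference of 1.53 that was 0.77 and uncalled without the goblet-like wells. Herpud1, of endoplasmic reticulum degradation, fell to 18.1, 28.8, 30.7 and 14.2 TPM in the conditional knockout, against 38.3, 58.3 and 31.2 TPM in wt, a difference of -0.88 that changed sign under several settings given in the closing section. Within colonocyte-like wells 2 chaperones of this list went opposite ways. The lectin chaperone Calr was called higher there, at 25.03, 41.7, 42.5 and 29.2 TPM in the conditional knockout, against 0, 20.9 and 16.5 TPM in wt. Hspa5 was called lower there, at 12.5, 3.92, 23.9 and 43.3 TPM in the conditional knockout, against 56.6, 143.6 and 109.9 TPM in wt.

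Immune and stress lists held at most 1 call each, beside 2.21% of all genes called higher and 5.11% lower. Of 20 measured interferon response genes, 11 were above 0 with a median of 0.14; only 4 reached 10 TPM, and none of these was called. Of 11 measured genes of antigen presentation on MHC class I, 9 were above 0 and 7 reached 10 TPM, of which 1 was called. It was Psmb10, an immunoproteasome subunit, which fell to 26.3, 17.9, 30.9 and 27.7 TPM in the conditional knockout, against 33.4, 53.1 and 49.2 TPM in wt. Its call was lost without the goblet-like wells at -0.61. Of 13 measured genes of NF-kappaB signalling 6 reached 10 TPM, and 1 was called. It was Birc3, an inhibitor of apoptosis, which rose to 8.58, 13.9, 18.2 and 2.76 TPM in the conditional knockout, against 1.03, 1.31 and 0 TPM in wt, a log2 difference of 2.59. Its call was lost without plate set 4 (2.40), without plate set 5 (2.28) and without the goblet-like wells (2.27). Among 18 immediate early genes 14 lay below 0 with a median of -0.40, but after rescaling 9 were above 0 with a median of 0.09. Of the 13 that reached 10 TPM, Egr1 alone was called. Egr1 fell to 23.3, 32.04, 24.8 and 19.6 TPM in the conditional knockout, against 39.4, 82.4 and 59.999 TPM in wt, a difference of -1.21 that was -0.76 and uncalled without the 3 wells that carry genes of another cell type.

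Growth and junction lists lay below the median of all genes without calls that held. Of 16 measured genes of mTOR, AMPK and Akt signalling, in which Ipmk protein has a known role, 14 lay below 0 with a median of -0.45, and of 15 p53 and apoptosis genes 14 lay below 0 with a median of -0.44. Only 2 and 8 of them reached 10 TPM, and none of these was called. After rescaling these medians were -0.02 and 0.13, so their direction depends on the scaling. Ocln, which encodes the tight junction protein occludin, fell to 7.80, 5.47, 9.23 and 2.43 TPM in the conditional knockout, against 149.1, 9.47 and 11.4 TPM in wt. Its log2 difference of -2.01 rested on values that nearly met, 9.23 against 9.47 TPM, and was -1.79 and uncalled without the 3 wells that carry genes of another cell type. No gene was called among 19 of oxidative phosphorylation, 12 of the mitochondrial genome, 20 ribosomal protein genes and 10 pan-epithelial genes, nor among 12 heat shock, 11 keratin and Sprr and 11 Wnt and Notch genes, of which 8, 9 and 2 reached 10 TPM. The medians of these lists lay between -0.71 and 0.04. Some genes called from these lists were not called after rescaling. Ip6k1, Ceacam20 and Ocln then had differences of -3.38, -1.53 and -1.76, and Psmb10, Herpud1, Egr1, Espn and Pparg smaller ones of -0.64, -0.55, -0.42, -0.38 and -0.27.

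Tuft markers were below 0 for all 15 measured of 24, with a median of -1.88; 2 of them chose the wells, so this is a description. Without the 3 wells that carry genes of another cell type the median was -0.04. These wells were picked by Ptprc or by Avil and Sh2d6 of this same list, so that change is description too. Espn, an actin-bundling protein on that list, had 32.4, 34.9, 22.4 and 48.9 TPM in the conditional knockout, against 128.9, 58.7 and 52.97 TPM in wt, and its difference of -1.12 was -0.63 and uncalled without those wells.

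**Figure D5:**
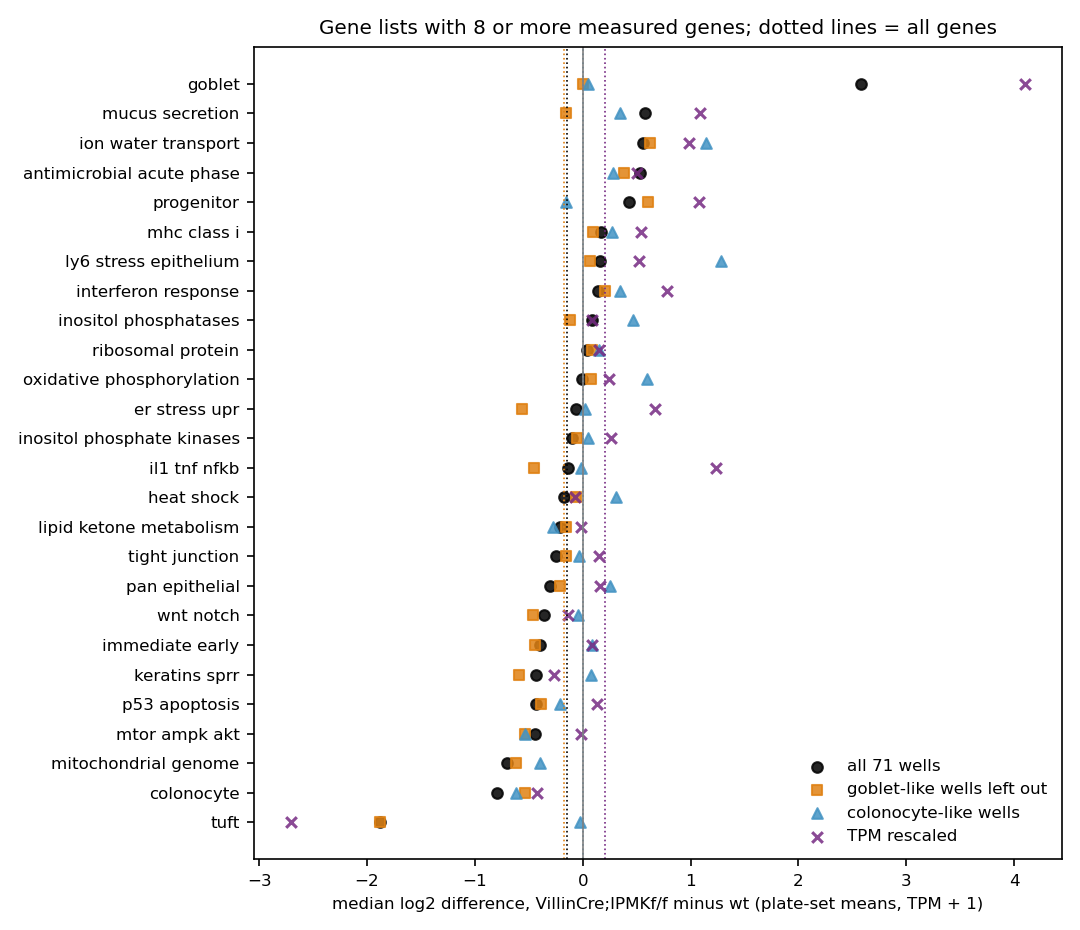
Median log2 difference (VillinCre;IPMKf/f minus wt, plate-set means of TPM + 1) of each gene list with 8 or more measured genes, for all 71 wells, without goblet-like wells, in colonocyte-like wells and after rescaling; dotted lines mark the median of all genes. The goblet list stands at 2.58 with all wells and at 0 without the goblet-like wells, which were named by that list. The tuft list at -1.88 in all wells lies near 0 in colonocyte-like wells.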

How the data were processed

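The deposited table holds TPM per gene and well for 46517 genes; per the submitters' processing notes it was made with Bowtie2 2.4.2 and RSEM 1.3.3 on build mm10. The sources used here do not give annotation, strand handling or read depth, and TPM keeps no depth, so genes above 0 stand in for it. Coordinates are from GENCODE vM21 (GRCm38). Columns of 38 near-empty wells of plate set 7 were not used. Wells were clustered with scanpy 1.11.5 (2000 variable genes, 20 components, 15 neighbours, Leiden resolution 1). That resolution, in place of 0.5, and the naming rule were set with the clusters in view. Naming took 3 markers, each found in 25% of a cluster's wells at 2-fold the lower quartile of cluster means after adding 10 TPM. No doublet caller was run. Means, differences and calls are as defined in the report, with 1 TPM added, and the calculation was tested on simulated data. Named are Ipmk and the 3 markers, the 12 highest and 12 lowest called genes above 0 in 25% of the wells of the higher genotype, and up to 4 genes of each of 31 lists, called ones first. Agr2, Spink4, Mki67, U2af1 and the genes of single wells were named after their values were seen. Gm, Rik, clone and mitochondrial genes were counted, not named. The wells, lists and comparisons were chosen with earlier results of these data known. Alternatives changed the pseudocount, averaging, floor, scaling, filters, classes and plate sets.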

Additional observations from a re-analysis of the deposited data

Results flagged for a closer look

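Among the 4 VillinCre;IPMKf/f plate-set means of every named gene, 8 genes had a plate set far from the other 3. Chance alone sets one apart in about 1 in 20 groups. The search took in every gene named by rule, also those of the lists that were not called. For that many groups, 8 is close to the number that chance alone would give, so the genes below are listed as description only. The 3 wt plate sets are too few for this search. Gtf2ird1 stood at 1838.87 TPM in plate set 4, where the other plate sets had 5.58 to 11.2 TPM, and 1 well held 14609 TPM. Plate set 5 stood apart for Ccl5 at 18.3 TPM, Ptprc at 6.49 TPM, Nkg7 at 9.60 TPM, Tyrobp at 47.9 TPM and H2-Ab1 at 2.04 TPM. The first 4 of these were above 0 in the well of that plate set with 255.99 TPM of Ccl5. Cox5b, a subunit of cytochrome c oxidase, was at 353.2 TPM in plate set 2, below the 977 to 1170.2 TPM of the others. Avil was at 0.513 TPM in plate set 2 and at 0 in the others. Apart from Gtf2ird1 and Cox5b, each of these genes was above 0 in a single VillinCre;IPMKf/f well.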

How the results depend on the processing

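The share of tested genes called moved with nearly every choice, from 2.21% higher and 5.11% lower. Leaving out each plate set in turn gave 2.49 to 6.61% higher and 5.99 to 22.8% lower. With fewer plate sets there are fewer values that can overlap. The 22.8% came without wt plate set 6, against 12.5% without wt plate set 3 and 9.34% without wt plate set 1. Why these differed was not tested. Averaging log values over wells gave 2.75% lower, and the median over wells gave 1.58% higher and 2.71% lower of 1326 genes. A floor of 1 TPM gave 2.30% higher and 3.39% lower of 10454 genes, and no floor gave 0.574% and 0.77% of 46517. Weighting every well equally, with no requirement on overlap, gave 14.5% higher and 41.7% lower. Rescaling without mitochondrial and the 20 most abundant genes gave 3.65% higher and 2.12% lower. Among alternatives chosen after seeing the data, rescaling without Rn18s-rs5 gave 4.17% higher and 1.66% lower of 7048 genes, and leaving out the 3 wells with 20 TPM or more of Ptprc, Avil or Sh2d6 gave 3.21% lower. Colonocyte-like wells made up 84% of VillinCre;IPMKf/f and 95.2% of wt wells at resolution 0.5 and with 1000 variable genes, and 83.8% and 91.7% of wells with 2000 genes or more, where progenitor-like wells were 0% in both genotypes. Leaving out plate sets put colonocyte-like wells between 48.4 and 59.5% in VillinCre;IPMKf/f and between 46.2 and 76.9% in wt, and progenitor-like wells between 28.6 and 31.7% in VillinCre;IPMKf/f and between 15.4 and 53.8% in wt. Of 47 named genes, the sign turned for Car1 (-0.11) and Herpud1 (0.37) with averaged logs, for Zfand5 (0.59), Ceacam20 (0.67), Car1 (-2.71), Herpud1 (1.53) and Pparg (1.15) with medians, for Car1 (-0.74) and Herpud1 (0.89) with 2000 genes or more, and for Herpud1 without Rn18s-rs5 (0.41) or without the 3 wells (0.14). The cause was not tested. The 47 named genes include Ipmk, Epcam, Krt20 and Muc2, which were not called, so the calls number fewer than 47. The median over wells ended 36 calls and turned 5, which left only those of Psmb10 and Acadm. Wells with 2000 genes or more ended 14 and turned 2. Pseudocounts of 0.1 and 10 TPM and lower floors ended at most 1 named call. Rescaling without abundant genes ended 15 calls among the 46 named genes that it kept. No paired analysis was possible because no plate set holds both genotypes. With 5 to 19 wells a plate set, single wells set several means.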

Other observations

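Of 39 Hox genes in the table, 11 reached 1 TPM in these wells, 5 above and 6 below 0. Hoxb13 was the only one called, in the higher direction, and no Hox gene was called lower.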
